A study of Mus musculus with 6 samples.

Results

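The SCF complex is a ubiquitin ligase built on the cullin CUL1. The 9 genes described here encode its shared parts (Skp1, Cul1 and Rbx1), 4 of its F-box receptors (Btrc, Fbxw11, Skp2 and Fbxw7) and the factors that switch it on and recycle it (Nedd8 and Cand1). They were taken by gene symbol from 25731 genes in the table, and each was found once. The set was drawn up around Skp1, which was already known to pass the test in these libraries, that is, it was chosen by the RPKM values of these same 6 libraries, so the differences of the 9 genes between the groups are given as description, with no p-value.

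In an SCF complex, CUL1 is the scaffold. At its end sits SKP1, the adaptor that docks an exchangeable F-box protein, and the F-box protein chooses the substrate. RBX1, the RING subunit, sits at the opposite end and brings in the charged ubiquitin-conjugating enzyme. The ligase becomes active when the small protein NEDD8 is joined to CUL1, the COP9 signalosome takes NEDD8 off again, and CAND1 binds unmodified CUL1 and lets the F-box proteins change places. SCF ligases are known for the timed removal of cell cycle proteins, and in mouse eggs the receptor β-TrCP is known for the removal of EMI2 (encoded by Fbxo43) on the exit from metaphase arrest at fertilization.

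The data were RNA sequencing libraries from pools of 13 zygotes, wild-type embryos of the background B6C3F1 x CD1. All zygotes were microinjected 15 h after hCG with mRNA for mCherry-Trim21, the ubiquitin ligase that binds antibodies, and with oregon green dextran as tracer. The 3 ZP3 Trim-away pools also received antibody against ZP3, a zona pellucida protein, and the 3 no Trim pools received the buffer of the antibody instead, so both groups carried the Trim21 mRNA. RNA was extracted 10 h after injection, at the pronuclear stage, which limits the comparison to a single early time. The labels do not say whether the pools of a group came from separate collections, so errors and p-values measure the spread between pools, which may be technical.

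Library totals, inferred from the deposited RPKM values, were 17378251 to 20005724 reads in the no Trim group and 15291000 to 15746633 reads in ZP3 Trim-away. Levels are in RPKM (reads per unit of exon length and library total), and differences are log2 fold changes of RPKM plus 1, ZP3 Trim-away minus no Trim, with their standard error from limma. A gene is said to be called where limma's adjusted p over the 9965 genes averaging 1 RPKM or more was below 0.05. The no Trim libraries varied more among themselves (median SD over genes 0.436 on the log2 scale) than the Trim-away libraries (0.202). The median of all genes tested was itself 0.22 on the log2 scale, and Trim21 reads took 14.6% to 18.1% of each no Trim library against 9.12% to 11.0% of each Trim-away library, and RPKM is relative to totals that include these reads. Trim21 was called lower in ZP3 Trim-away (log2 fold change -0.73 ± 0.10, adjusted p = 0.0274 by limma), and injected and endogenous Trim21 cannot be told apart. That call held in 9 of 17 alternatives, and among the others were a pseudocount of 0.1 (adjusted p = 0.0507 by limma), quantile normalization, which by its construction gave a log2 fold change of 0, and leaving out any of the Trim-away replicates (-0.70, -0.69 and -0.82). Zp3, the gene of the targeted protein, was not called (0.34 ± 0.21, adjusted p = 0.411 by limma). All 12 zygote and oocyte markers averaged 1 RPKM or more, and none was called. Their summed level was 6517 to 7921 RPKM in no Trim and 8769 to 10340 RPKM in ZP3 Trim-away. Dppa3 held the largest part of these sums, at 3709 to 4926 RPKM and 5200 to 6552 RPKM in that order. The groups overlapped for Zp1, Zp2, Zp3, Gdf9, Oosp1 and Figla. Dppa3, Bmp15, Zar1, Nlrp5, Npm2 and Ooep were higher without overlap in ZP3 Trim-away, as were 20.3% of all genes tested. Of 14 cumulus and granulosa markers 11 were in the table and 3 reached 1 RPKM, with sums of 8.89 to 17.2 RPKM in no Trim and 13.6 to 19.3 RPKM in ZP3 Trim-away. Among these, Tnfaip6 was at 0, 0 and 1.68 RPKM in no Trim against 3.57, 6.95 and 6.92 RPKM in ZP3 Trim-away, and Cyp11a1 was at 0 in all no Trim libraries against 0.49, 3.56 and 1.28 RPKM. Cyp19a1 lay the other way, at 8.04 to 10.03 RPKM in no Trim against 4.6 to 6.43 RPKM, while the defining markers Foxl2 and Fshr were each at 0 in 5 libraries, and no cumulus marker was called. The 3 sperm markers in the table, of 6, summed to 2.39 to 7.77 RPKM in no Trim and 1.58 to 2.09 RPKM in ZP3 Trim-away, and the 1 blood marker in the table, of 5, reached at most 0.0529 RPKM. The part of these cells in the results was not tested. In pools of whole embryos, fewer cells of a type and less RNA per cell cannot be told apart.

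Skp1, Rbx1 and Nedd8 were the members that lay higher in every Trim-away library than in any no Trim library, and their promoters are shown to let their sequences be compared. The windows run from 250 bases before to 50 bases after the gene start and come from RefSeq on GRCm38.p6, in which 8 of the 9 members had an entry. Capitals mark the motif searched that is named for each, and positions count the first base of the gene as 1. The Skp1 window (chr11:52231745-52232044, plus strand) holds TATAAA from position 13, the Rbx1 window (chr15:81466066-81466365, plus strand) holds CCAAT from position -52, and the Nedd8 window (chr14:55671831-55672130, minus strand) holds CCGGAAG from position -44.
Skp1: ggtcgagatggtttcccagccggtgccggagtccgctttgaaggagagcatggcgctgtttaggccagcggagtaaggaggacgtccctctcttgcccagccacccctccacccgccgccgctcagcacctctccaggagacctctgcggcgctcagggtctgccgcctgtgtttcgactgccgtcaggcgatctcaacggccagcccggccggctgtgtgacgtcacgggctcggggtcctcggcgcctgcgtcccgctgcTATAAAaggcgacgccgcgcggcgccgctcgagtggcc
Rbx1: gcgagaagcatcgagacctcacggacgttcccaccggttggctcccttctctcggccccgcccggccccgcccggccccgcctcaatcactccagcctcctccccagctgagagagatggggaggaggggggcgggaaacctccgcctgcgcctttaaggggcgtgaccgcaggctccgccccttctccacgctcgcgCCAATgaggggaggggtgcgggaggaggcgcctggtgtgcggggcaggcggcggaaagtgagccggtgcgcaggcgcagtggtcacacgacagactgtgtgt
Nedd8: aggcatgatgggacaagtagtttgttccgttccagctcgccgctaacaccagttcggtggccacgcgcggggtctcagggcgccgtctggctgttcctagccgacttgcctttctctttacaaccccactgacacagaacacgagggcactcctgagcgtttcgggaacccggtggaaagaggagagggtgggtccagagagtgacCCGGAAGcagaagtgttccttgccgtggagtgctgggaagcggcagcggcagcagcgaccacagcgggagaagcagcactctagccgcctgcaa

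The 3 promoters were rich in G and C. Their GC content was 69% for Skp1, 70.7% for Rbx1 and 61.3% for Nedd8, against a median of 52.7% over 32851 promoter windows of the same length. They held 34, 29 and 21 CpG dinucleotides in the same order. GC content and CpG counts of the other member windows are not given, so no comparison with those members is made. Motifs were searched on both strands by their exact letters, and the capitalized motif of each of the 3 genes was found in neither of the other windows shown. TATAAA was present in 13.6% of all windows and, among the members, in those of Skp1 and Fbxw7. CCAAT was present in 37.4% of all windows and in those of Rbx1 and Skp2, and CCGGAAG, the core letters of ETS factor sites, in 8.86% and in those of Nedd8 and Fbxw11. The GC box GGGCGG was present in 35.7% of all windows and in 5 member windows (Cand1, Cul1, Fbxw7, Rbx1 and Skp2), which include only Rbx1 of the 3 genes shown. The E-box CACGTG (7.15% of all windows) was in the Cul1 window alone among the 8, and the NRF1 motif (0.971%) was in none of the 8. These are matches of letters and were not measured as sites.

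Transcripts of all 9 genes were present in every library. Skp1 and Cul1 were by far the most abundant, each at percentile 99.4 of the genes tested by mean level over the 6 libraries. Rbx1 and Nedd8 stood at percentiles 91.7 and 91, Cand1 and Btrc at 74.2 and 72.6, Fbxw11 and Skp2 at 51.7 and 48.8, and Fbxw7 at 13.6. The median level of all genes tested was 5.43 RPKM, so the substrate receptors Fbxw11 and Skp2 were near the middle of the zygote's transcripts, while their shared adaptor and scaffold were near the top.

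**Figure D1:**
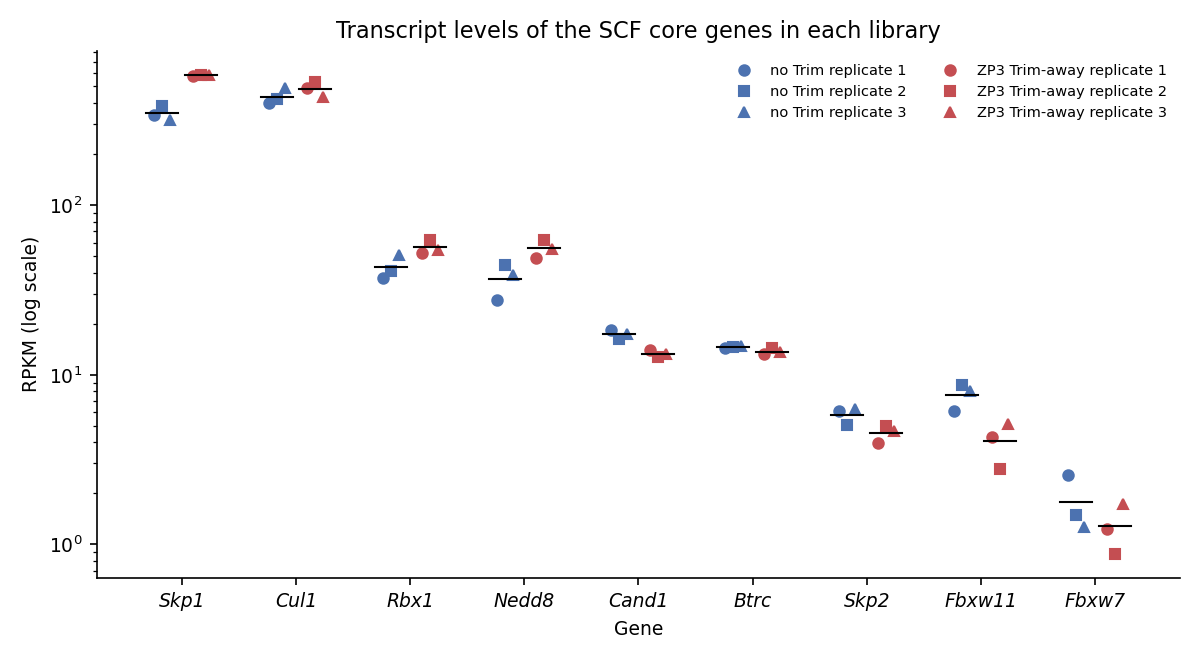
RPKM (log scale) of each SCF core gene in the 3 no Trim and the 3 ZP3 Trim-away libraries, a point per library and a bar at each group mean. Skp1 and Cul1 sit between 319 and 586 RPKM, Rbx1 and Nedd8 between 27.6 and 62.4 RPKM, and the points of Skp1 are the most clearly separated by group.

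The order of the mean levels over the 6 libraries was Skp1 (465 RPKM), Cul1 (459), Rbx1 (49.7), Nedd8 (46.2), Cand1 (15.3), Btrc (14.1), Fbxw11 (5.83), Skp2 (5.18) and Fbxw7 (1.53). RPKM is scaled to the length of all annotated exons of a gene. Which of its transcripts were present was not checked, so comparisons of level between genes are approximate. Of the 8 neighbouring pairs in this order, 4 kept their order in all 6 libraries. These were Cul1 over Rbx1 (by 7.88 to 10.7 times), Nedd8 over Cand1 (1.51 to 4.92 times), Btrc over Fbxw11 (1.68 to 5.15 times) and Skp2 over Fbxw7 (2.39 to 5.71 times). The other 4 pairs did not keep a single order. Skp1 was below Cul1 in all 3 no Trim libraries and above it in all 3 Trim-away libraries, so their order differed by group. The other neighbours changed order between libraries. Rbx1 exceeded Nedd8 in 3 of 6 libraries, Fbxw11 exceeded Skp2 in 4, and Cand1 exceeded Btrc in 4, which were all 3 no Trim libraries and 1 Trim-away library.

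Skp1 (ENSMUSG00000036309), the adaptor, was at 337.28, 385.39 and 318.58 RPKM in no Trim against 576.38, 583.86 and 586.42 RPKM in ZP3 Trim-away. The groups did not overlap, the lowest Trim-away library being 1.496 times the highest no Trim library, while the libraries differed by at most 1.21 times within no Trim and 1.02 times within ZP3 Trim-away. The means were 347 ± 34.5 and 582 ± 5.22 RPKM (SD, n = 3 each), a fold of 1.68. The log2 fold change was 0.75 ± 0.10, which is 0.53 above the median of all genes tested. Skp1 was called higher, as were 0.592% of all genes tested (59 of 9965), and since this call chose the set, nothing is read from it. The values rest on 12241 to 17047 reads per no Trim library and 19826 to 20301 per Trim-away library.

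The call of Skp1 moved with the processing, while its direction did not. It was called in 7 of 17 alternatives and not in the other 10, with log2 fold changes between 0.42 and 0.83. Among others, the call was lost when Trim21 reads were left out of the totals (0.64 ± 0.10), under median ratio scaling (0.55 ± 0.09) and quantile normalization (0.53 ± 0.10), after removal of the trend with exon length (0.42 ± 0.09) and without any of the Trim-away replicates 1, 2 or 3 (0.76, 0.75 and 0.74). Relative to the median of all genes in the same setting, the difference stayed between 0.41 and 0.65.

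**Figure D2:**
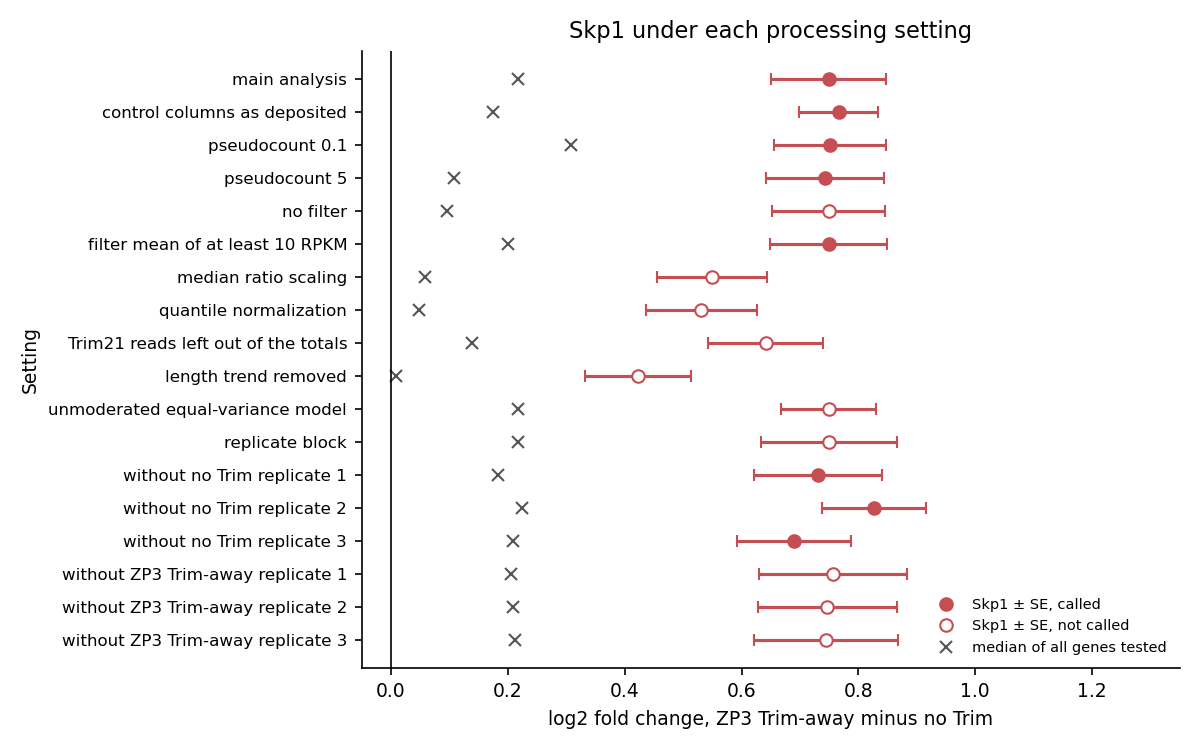
Log2 fold change of Skp1 (ZP3 Trim-away minus no Trim, point ± SE, filled where called) under the main analysis and 17 alternatives, with a cross at the median of all genes tested in each. Every point lies to the right of 0 and of its cross, between 0.42 and 0.83, and 10 of the 17 alternative points are open.

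Cul1 (ENSMUSG00000029686), the scaffold, was at 397.95, 423.08 and 487.02 RPKM in no Trim against 487.47, 530.10 and 430.80 RPKM in ZP3 Trim-away. The groups overlapped, since Trim-away replicate 3 lay below no Trim replicate 3. The log2 fold change was 0.15 ± 0.12, below the median of all genes, it was not called, and its sign turned under 3 of the scaling settings (-0.05 under median ratio, -0.04 under quantile and -0.06 with the length trend removed). Rbx1 (ENSMUSG00000022400), the RING subunit, was at 37.16, 41.11 and 50.60 RPKM in no Trim against 52.52, 62.30 and 54.66 RPKM in ZP3 Trim-away. Its groups were separated by a narrow gap of 1.04 times between no Trim replicate 3 and Trim-away replicate 1. Its log2 fold change was 0.40 ± 0.16, or 0.18 above the median of all genes, and it was not called. Of the exonic 72-base windows of Rbx1, 2.34% also occur in the pseudogene Rbx1-ps, so its reads could be split to that extent.

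The levels of the adaptor and the scaffold changed places between the groups. The ratio of Skp1 to Cul1 RPKM was 0.848, 0.911 and 0.654 in no Trim and 1.18, 1.10 and 1.36 in ZP3 Trim-away, on opposite sides of 1. The means of the ratio were 0.804 ± 0.134 and 1.22 ± 0.133 (SD, n = 3 each). A ratio within a library does not depend on the library's total, but its side of 1 depends on the exon lengths used. This ratio also rests on the same Skp1 values that chose the set, and was not corrected for the trend with exon length given below.

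The 4 F-box receptors had negative log2 fold changes, and none was called. Btrc and Fbxw11 encode β-TrCP1 and β-TrCP2, close paralogues that recognize phosphorylated degrons in proteins such as β-catenin, CDC25A and the Emi proteins. Btrc (ENSMUSG00000025217) was at 14.37, 14.56 and 14.72 RPKM in no Trim against 13.19, 14.30 and 13.63 RPKM in ZP3 Trim-away. Its no Trim values were the tightest of all members, the groups were separated by 1.01 times only, and its log2 fold change was -0.08 ± 0.17. With the length trend removed the sign turned (0.02). Of the exonic 72-base windows of Btrc, 0.703% also occur in transcripts of 4 other genes, among them Rpl6. Fbxw11 (ENSMUSG00000020271) was at 6.10, 8.69 and 8.06 RPKM in no Trim against 4.27, 2.78 and 5.11 RPKM in ZP3 Trim-away. Every Trim-away library was below every no Trim library, by a gap of 1.19 times, and the log2 fold change of -0.79 ± 0.29 was the lowest of the 9. Fbxw11 was not called, and it rests on 490 to 752 reads per no Trim library and 189 to 338 per Trim-away library.

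Skp2 (ENSMUSG00000054115), the receptor that with CKS1 recognizes the cyclin-dependent kinase inhibitor p27, was at 6.14, 5.03 and 6.29 RPKM in no Trim against 3.97, 5.0 and 4.66 RPKM in ZP3 Trim-away. The groups were separated by 1.01 times, between no Trim replicate 2 and Trim-away replicate 2. Its log2 fold change was -0.30 ± 0.25, and it was not called. Fbxw7 (ENSMUSG00000028086), a receptor for cyclin E and MYC, was the lowest member at 2.57, 1.5 and 1.26 RPKM in no Trim against 1.23, 0.88 and 1.72 RPKM in ZP3 Trim-away. Its groups overlapped, with 154 to 336 and 97 to 185 reads per library, and the log2 fold change of -0.27 ± 0.36 was smaller than its standard error.

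Summed over the 4 receptors, the level was 29.18, 29.78 and 30.33 RPKM in no Trim and 22.66, 22.95 and 25.12 RPKM in ZP3 Trim-away. The sum varied less within each group (29.8 ± 0.577 and 23.6 ± 1.34 RPKM, SD, n = 3 each) than the distance between the groups. Btrc made up 48.5% to 49.2% of the sum in no Trim and 54.3% to 62.3% in ZP3 Trim-away. The ratio of Btrc to its paralogue Fbxw11 was 2.36, 1.68 and 1.83 in no Trim and 3.09, 5.15 and 2.67 in ZP3 Trim-away. The ratio of Skp1 to the summed receptors was 11.6, 12.9 and 10.5 in no Trim and 25.4, 25.4 and 23.4 in ZP3 Trim-away, with means of 11.7 ± 1.22 and 24.7 ± 1.20 (SD, n = 3 each). These ratios use the contrast that chose the set and are descriptions. They were not corrected for the trend with exon length given below. Exons of Skp1 span 2211 bp, those of the 4 receptors 4327 to 16908 bp.

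Nedd8 (ENSMUSG00000010376), the modifier that activates CUL1, was at 27.55, 44.48 and 38.70 RPKM in no Trim against 49.05, 62.38 and 55.03 RPKM in ZP3 Trim-away. All 3 Trim-away libraries were above all 3 no Trim libraries, with a gap of 1.10 times, and no Trim replicate 1 was the lowest. The log2 fold change was 0.60 ± 0.20, or 0.38 above the median of all genes, and it was not called. Of its exonic 72-base windows, 8.23% also occur in transcripts of Gmpr2, the largest share among the members, so part of its level is uncertain.

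Cand1 (ENSMUSG00000020114), the exchange factor, was at 18.31, 16.20 and 17.34 RPKM in no Trim against 13.97, 12.68 and 13.31 RPKM in ZP3 Trim-away. Here too the groups did not overlap, the highest Trim-away library lying below the lowest no Trim library by 1.16 times. Means were 17.3 ± 1.06 and 13.3 ± 0.645 RPKM (SD, n = 3 each), and the log2 fold change was -0.35 ± 0.17, which is 0.57 below the median of all genes, with no call. The ratio of Skp1 to Cand1 was 18.4, 23.8 and 18.4 in no Trim and 41.3, 46.1 and 44.1 in ZP3 Trim-away. It uses the Skp1 values that chose the set and was not corrected for the trend with exon length given below.

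All 9 members passed the filter on low values, and 1 of them was called. This was Skp1, whose call chose the set, so nothing is read from that count. Of all genes tested, 0.632% were called (63 of 9965, of which 59, or 0.592%, were higher and 4, or 0.0401%, lower). The groups did not overlap for 7 members, 3 higher (Skp1 among them) and 4 lower in ZP3 Trim-away. Over all genes tested that share was 26.7% (20.3% higher and 6.34% lower). Log2 fold changes were positive for 4 of 9 members, against 67.3% of all genes, and the median was -0.08 for the members and 0.22 for all genes. The 4 receptors, Cand1 and Cul1 lay below the median of all genes, and Skp1, Nedd8 and Rbx1 lay above it.

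**Figure D3:**
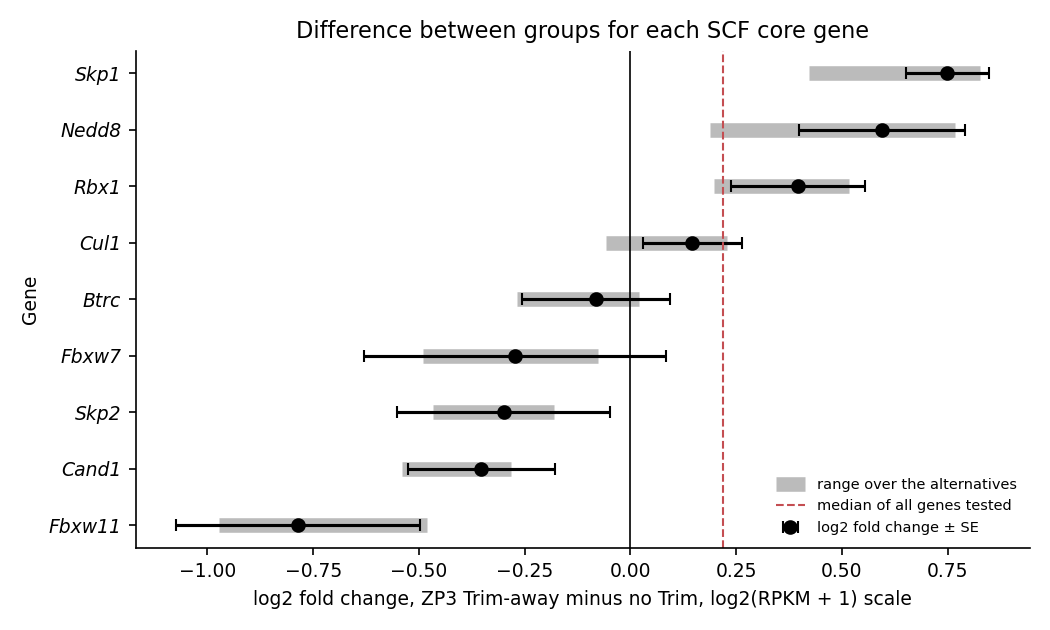
Log2 fold change of each SCF core gene (ZP3 Trim-away minus no Trim on the log2(RPKM + 1) scale, point ± SE), the range over the alternatives (grey bar) and the median of all genes tested, 0.22 (dashed line). Skp1, Nedd8 and Rbx1 stay to the right of 0 over all alternatives, Skp2, Fbxw11, Fbxw7 and Cand1 stay to the left, and the bars of Cul1 and Btrc cross 0.

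How clearly the groups stood apart depended on the scaling. Skp1 remained above, and Fbxw11 and Cand1 remained below, without overlap under median ratio scaling, quantile normalization, Trim21 reads left out of the totals and removal of the length trend. Nedd8 overlapped under all of these but the omission of Trim21 reads, and Rbx1 overlapped under all 4. Skp2 and Btrc overlapped once the length trend was removed. Over all genes tested, the share higher without overlap was 12.4%, 12.6%, 15.6% and 10.9% under these 4 settings in the order given, and the share lower was 11.8%, 11.5%, 8.82% and 12.1%. Genes with long exons tended to lie lower in ZP3 Trim-away (Spearman's rho of the log2 fold change with exon length -0.305 across 9858 genes, which are not independent replicates). Exons of the members spanned 1261 bp for Nedd8, 2211 bp for Skp1 and 4551 bp for Rbx1 among the higher ones, and 4327 bp for Fbxw11, 7875 bp for Skp2, 8357 bp for Cand1 and 16908 bp for Btrc among the lower ones, against a median of 3626 bp. The part of exon length in the members' differences was tested only by the removal of the trend.

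The genes whose levels over the 6 libraries were most like that of Skp1 were sought among 3443 named genes averaging 10 RPKM or more, by Pearson's r of log2(RPKM + 1). The closest were Nlrp9b (r = 0.998), Paip2 (0.998), Kpna2 (0.996), Fxr1 (0.996) and Haus3 (0.996). Nlrp9b is an oocyte-enriched gene of the NLRP family, Paip2 a protein that inhibits the poly(A)-binding protein, Kpna2 an importin, Fxr1 an RNA-binding protein and Haus3 a subunit of the augmin complex. Paip2 (log2 fold change 1.21), Kpna2 (0.71) and Haus3 (0.90) were called higher, as were 0.592% of all genes tested. Nlrp9b (0.30) and Fxr1 (0.35) were not called. The ranking used the Skp1 values that chose the set, so nothing is read from these calls. Such values of r were common, since 153 genes had r above 0.95 and 368 above 0.9, and the points share the 2 groups and the library totals. Among the members, Nedd8 had r = 0.842 with Skp1, Rbx1 0.734, Cul1 0.435, Btrc -0.76 and Cand1 -0.97, the last at rank 3415 of 3443. Skp2, Fbxw11 and Fbxw7 were below 10 RPKM and were not ranked.

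The wider pathway was described by 9 lists with 113 genes, of which 112 were in the table and 79 were tested. None of the 79 was called by limma at an adjusted p below 0.05, against 0.632% of all genes, while 22 had an unadjusted p below 0.05, against 19.5% of all genes. Log2 fold changes were positive for 45 of the 79, with a median of 0.12. The groups did not overlap for 17 genes higher and 11 lower in ZP3 Trim-away, together 35.4% against 26.7% of all genes. With the control columns as deposited, 36 of the wider genes and 5 members (Skp1, Rbx1, Nedd8, Fbxw11 and Cand1) were called, 36 of 75 wider genes tested (48%) against 37.3% of all genes in that setting, but those columns hold averages that share a library.

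The enzymes that remove NEDD8 had the highest median of the 9 lists (0.70), except with the filter of 10 RPKM. Under that filter the cullin-RING regulators lay above them (0.50 against 0.43). The list of NEDD8 removal holds the COP9 signalosome and SENP8, a protease specific for NEDD8. Of 11 genes, 10 had a positive log2 fold change (67.3% of all genes), 6 were higher without overlap (20.3% of all genes) and 7 had an unadjusted p below 0.05 (19.5% of all genes), while the median of all genes was 0.22. The most abundant, Cops8, was the gene that did not share the direction, at 106.70, 88.32 and 88.09 RPKM in no Trim and 86.34, 98.74 and 87.29 RPKM in ZP3 Trim-away (-0.05 ± 0.13, adjusted p = 0.859 by limma). The following were chosen after their values were seen. Cops2 was at 69.76, 68.10 and 72.75 RPKM in no Trim and 114.32, 96.99 and 96.02 RPKM in ZP3 Trim-away (0.53 ± 0.12, adjusted p = 0.0704 by limma), with no overlap. Cops5, the catalytic subunit, was at 8.27, 2.95 and 2.69 RPKM in no Trim and 9.19, 8.09 and 10.32 RPKM in ZP3 Trim-away (0.99 ± 0.37, adjusted p = 0.198 by limma). Its groups overlapped, since no Trim replicate 1 lay above Trim-away replicate 2.

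Several genes of this list varied widely among the no Trim libraries. Cops3 was at 0, 4.43 and 2.0 RPKM in no Trim and 5.94, 7.51 and 6.84 RPKM in ZP3 Trim-away (adjusted p = 0.167 by limma), and Cops6 at 2.56, 4.71 and 0.50 RPKM and 6.46, 7.76 and 9.56 RPKM (adjusted p = 0.137 by limma). The no Trim values of both genes thus spread further apart than those of ZP3 Trim-away, and neither gene overlapped between the groups. Senp8 was at 22.11, 12.54 and 24.18 RPKM in no Trim and 25.56, 34.95 and 29.74 RPKM in ZP3 Trim-away (0.63 ± 0.26, adjusted p = 0.222 by limma). The median of the list stayed between 0.43 and 0.86 over the 17 alternatives, and 0.23 to 0.61 above the median of all genes in the same setting. The number higher without overlap fell from 6 to 4 of the 11 under each of the 4 scaling settings, while that share of all genes fell from 20.3% to between 10.9% and 15.6%.

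Genes that join NEDD8 to cullins were mixed. Of 10 genes 9 were tested, 6 were positive, 1 was higher and 1 lower without overlap (20.3% and 6.34% of all genes), and the median was 0.25, near that of all genes. The most abundant was Dcun1d1, a NEDD8 ligase that also binds cullins, at 46.09, 50.02 and 40.59 RPKM in no Trim and 66.26, 54.01 and 59.21 RPKM in ZP3 Trim-away (0.39 ± 0.15, adjusted p = 0.198 by limma). Its relative Dcun1d5, chosen after its values were seen, lay the opposite way at 13.39, 12.44 and 10.87 against 5.94, 9.71 and 8.35 RPKM (-0.57 ± 0.24, adjusted p = 0.231 by limma). Of the cullin-RING regulators 4 of 6 were tested, and all 4 were positive (67.3% of all genes) with 3 higher without overlap (20.3% of all genes) and a median of 0.52. Sugt1, a SKP1-binding co-chaperone and the most abundant of them, was at 0.02 ± 0.15 (adjusted p = 0.967 by limma) and turned sign under all 4 scaling settings. Glmn, which encodes the RBX1-binding inhibitor glomulin and was chosen after its values were seen, was at 34.28, 21.50 and 25.80 RPKM in no Trim and 44.77, 45.49 and 43.57 RPKM in ZP3 Trim-away (0.72 ± 0.19, adjusted p = 0.0896 by limma).

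The ubiquitin-conjugating enzymes and ligases listed as ubiquitin donors had 6 of 10 genes tested, with 2 positive and a median of -0.15. Of the 6 tested, 1 was higher and 1 lower without overlap (20.3% and 6.34% of all genes). Ube2d3, the most abundant, was at 58.56, 66.81 and 72.98 RPKM in no Trim and 77.98, 88.43 and 79.31 RPKM in ZP3 Trim-away (0.31 ± 0.13, adjusted p = 0.249 by limma). Cdc34b, a copy of the SCF conjugating enzyme CDC34 and chosen after its values were seen, was at 4.6, 6.03 and 5.19 RPKM against 1.57, 2.49 and 2.14 RPKM (-1.04 ± 0.29, adjusted p = 0.106 by limma), with 31 to 151 reads per library, and how its reads were split from those of Cdc34 was not checked. The other cullins and their adaptors had 7 of 11 genes tested, with 4 positive and a median of 0.15. Cul4b, the most abundant, differed by -0.24 ± 0.13 on the log2 scale (adjusted p = 0.347 by limma). Eloc, the elongin C adaptor, which resembles SKP1 in fold and serves CUL2 and CUL5, was at 32.61, 34.33 and 29.51 RPKM in no Trim and 51.44, 57.58 and 53.55 RPKM in ZP3 Trim-away. Chosen after its values were seen, it lay just outside the threshold (0.74 ± 0.14, adjusted p = 0.0519 by limma), with a log2 fold change close to that of Skp1. Ddb1, the adaptor of CUL4 and also chosen after its values were seen, was lower in every Trim-away library (-0.56 ± 0.19, adjusted p = 0.165 by limma).

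The other F-box receptors listed, of the FBXL and FBXW families and cyclin F, showed no common direction. Receptors of the FBXO family and the oocyte-specific Fbxw cluster were not in this list. Of 29 listed with CKS1, 28 were in the table and 19 were tested, 10 were positive, none was higher and 2 were lower without overlap (20.3% and 6.34% of all genes), none had an unadjusted p below 0.05, and the median was 0.02. Cks1b, the cofactor of SKP2 and the most abundant of the list, was at 314.01, 317.27 and 329.26 RPKM in no Trim and 319.95, 411.63 and 310.84 RPKM in ZP3 Trim-away (0.11 ± 0.12, adjusted p = 0.673 by limma). The single high value was Trim-away replicate 2.

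**Figure D4:**
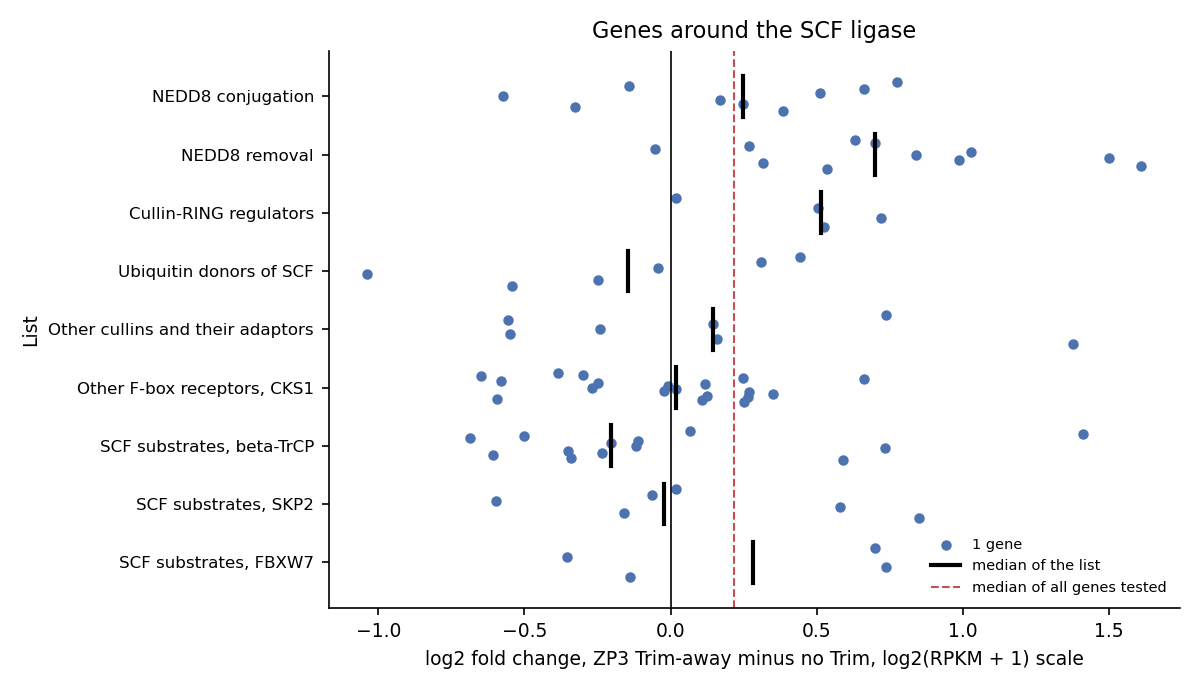
Log2 fold change (ZP3 Trim-away minus no Trim, log2(RPKM + 1) scale) of each tested gene around the SCF ligase, a point per gene, by list, with the median of each list (black bar) and of all genes tested, 0.22 (dashed line). The median of NEDD8 removal lies highest (median 0.70), that of β-TrCP substrates lowest (median -0.20). The other F-box receptors (FBXL, FBXW and cyclin F, listed with CKS1, without the FBXO family) centre near 0.

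Known substrates of the receptors were counted at the transcript level only, since protein was not measured in these libraries. Fbxo43, which encodes EMI2, was not among the substrates listed. Of 15 β-TrCP substrates 13 were tested, 4 were positive, 3 were higher and 5 lower without overlap (20.3% and 6.34% of all genes), and the median was -0.20, against 67.3% positive and a median of 0.22 for all genes. Wee2, the oocyte kinase that inhibits CDK1 and the most abundant, differed by 0.07 ± 0.11 on the log2 scale (adjusted p = 0.768 by limma), with 366 to 455 RPKM over all libraries. Among genes chosen after their values were seen, Fbxo5 (EMI1, an inhibitor of the anaphase-promoting complex) was at 62.57, 65.58 and 47.32 RPKM in no Trim and 96.64, 90.13 and 104.35 RPKM in ZP3 Trim-away (0.73 ± 0.15, adjusted p = 0.0601 by limma). The phosphatase gene Cdc25a (-0.61 ± 0.26, adjusted p = 0.241 by limma) and the repressor gene Rest (-0.50 ± 0.16, adjusted p = 0.135 by limma) were lower in every Trim-away library.

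Of 9 SKP2 substrates 6 were tested, 3 were positive, 1 was higher and 1 lower without overlap (20.3% and 6.34% of all genes), and the median was -0.02. The most abundant, the origin recognition gene Orc1, was at 0.02 ± 0.20 (adjusted p = 0.970 by limma). Of 12 FBXW7 substrates 4 were tested, 2 were positive, 1 was higher without overlap (20.3% of all genes), and the median was 0.28. The kinase gene Aurka, the most abundant, was at 172.04, 144.64 and 87.71 RPKM in no Trim and 116.60, 114.26 and 122.73 RPKM in ZP3 Trim-away (-0.14 ± 0.22, adjusted p = 0.770 by limma), its Trim-away values lying inside the range of the no Trim values. Ccne2, which encodes a cyclin E and was chosen after its values were seen, was at 37.95, 49.89 and 39.20 RPKM in no Trim and 63.69, 80.46 and 69.27 RPKM in ZP3 Trim-away (0.74 ± 0.16, adjusted p = 0.0636 by limma).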

How the data were processed

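Transcripts of 6 pools of 13 zygotes were sequenced after preparation with a low-input kit. The authors deposited 1 table of RPKM values for 25731 genes, made, per the labels and the methods, with FastQC 0.11.9, Trimmomatic, HISAT2, SAMtools and htseq-count (other versions: not given in the sources used here). Genes sharing a symbol were averaged, and no source states that strand was used in counting. The labels name build GRCm39 and the methods GRCm38, so gene positions rest on GRCm38 annotation (GENCODE M21 and RefSeq GRCm38.p6) and may not match the build of the reads. No column of per-sample values lacked a sample (0 columns).

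The deposited columns of no Trim replicates 2 and 3 were never below 0.5 times that of replicate 1 in 13202 genes and exactly 0.5 times in 2059 and 2090 genes, a ratio found in no other pair. They were taken as means with replicate 1 and separated as 2 times the column minus replicate 1, with 0 negative values. Library totals were inferred as those that turn the RPKM values, multiplied by exon length, into whole reads. Multiplied by exon length (24959 genes) and library total, 95.0% to 96.0% of values then lay within 0.01 of a whole read. The totals were fitted to this property, so it is not a separate check of them. At 1 kb, 3 reads, the limit that a count of 0 allows, are 0.15 to 0.196 RPKM, for counting error only.

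Groups were compared two-sided with limma 3.58.1 (R 4.3.3, trended prior) on log2(RPKM + 1), for 9965 genes averaging 1 RPKM or more, with Benjamini-Hochberg adjustment at 0.05. The pseudocount understates the change of low genes. The model was tested on simulated data. Other steps used Python 3.11.15, pandas 2.3.3, numpy 2.4.6 and matplotlib 3.10.9. Named were all 9 members, the called and the most abundant tested gene of each wider list, the 5 genes most like Skp1, Trim21 and Zp3, and the others were chosen after their values were seen, as stated beside them. The members and lists were chosen with earlier results of these data known. Alternatives covered the control columns, pseudocount, filter, scaling, Trim21 reads, exon length, spread, replicate block and each replicate left out.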

Additional observations from a re-analysis of the deposited data

How the results depend on the processing

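Against 63 genes called in the main analysis, of which 1 was a member (Skp1) and 0 of the wider lists, 3707 genes were called with the control columns as deposited (5 members and 36 wider genes), 19 with a pseudocount of 0.1, 145 with a pseudocount of 5 (1 wider gene), 368 with a filter of 10 RPKM (5 wider genes), 12 under median ratio scaling, 21 under quantile normalization, 19 with Trim21 reads left out, 36 with the length trend removed and 6 with an unmoderated spread. Calls were 59 higher and 4 lower in the main analysis, but 2537 and 1170 as deposited, 312 and 56 with the filter of 10 RPKM, 9 and 3 under median ratio scaling, 16 and 5 under quantile normalization, 16 and 3 with Trim21 left out and 14 and 22 with the length trend removed. Without a filter 0 genes were called by limma (3323 at an unadjusted p below 0.05). Members called were 0 without a filter, under median ratio scaling, quantile normalization, Trim21 left out, the length trend removed and the unmoderated spread.

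The replicate block gave 0 called genes, 0 members included, by limma (1733 at an unadjusted p below 0.05), with Skp1 at 0.75. Same-numbered libraries did not deviate together (correlations of -0.061, 0.019 and -0.053 over 9965 genes, against -0.036 to 0.091 for other pairs). The numbers thus gave no sign of pairing, but this check cannot exclude that same-numbered pools were handled together.

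With 1 replicate left out, 0 to 300 genes, 0 to 1 members and 0 to 4 wider genes were called. Without Trim-away replicate 1, 2 or 3 no gene was called by limma (1208, 1100 and 1238 at an unadjusted p below 0.05), and without no Trim replicate 1, 2 or 3 there were 162, 300 and 125, with 2, 4 and 0 wider genes. The median of the members was -0.11 to -0.06 with 1 replicate left out, 0.27 with the filter of 10 RPKM (6 members tested), -0.27 under median ratio scaling, -0.23 under quantile normalization and -0.18 with Trim21 left out.

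Signs turned under median ratio scaling, quantile normalization, Trim21 left out and the length trend removed, in that order, for Sugt1 (-0.18, -0.19, -0.090, -0.015, and -0.093 as deposited), Cks1b (-0.094, -0.12, -0.0017, -0.31), Wee2 (-0.13, -0.17, -0.040, -0.19) and Orc1 (-0.17, -0.16, -0.085, -0.21). Cul1 turned under the first, second and last (-0.053, -0.044, -0.057), and Btrc (0.021) and Zp3 (-0.058) under the last. With 1 replicate left out, Sugt1 ranged from -0.11 to 0.12, Cks1b from -0.022 to 0.18, Wee2 from -0.025 to 0.12, Orc1 from -0.12 to 0.16, Cops8 from -0.11 to 0.039 and Aurka from -0.42 to 0.064. The cause of these changes was not tested. Among the members, Fbxw7 rested on the fewest reads (97 to 336 per library).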
